A study of Mus musculus with 6 samples.

Results

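The genes described here encode chaperones and folding enzymes of the endoplasmic reticulum (ER), components of ER-associated degradation (ERAD), and a few partners of both: ATF6-type sensors, the translocation channel and 1 subunit of the export coat. They were chosen by name. Of 40 names, 39 matched a row of the count table by gene symbol, and the remaining name, VIMP, is the former symbol of SELENOS, which was in the table. All 39 genes passed the filter on low counts, out of 17142 genes tested and 58735 genes listed.

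Proteins bound for the cell surface or for secretion enter the ER through the Sec61 channel and fold there with the help of Hsp70- and Hsp90-type chaperones, the lectins calnexin and calreticulin, and enzymes that form disulfide bonds. Chains that do not fold are passed back to the cytosol and degraded by the proteasome, which is called ERAD. When unfolded chains accumulate, the sensors ATF6, IRE1 and PERK start the unfolded protein response, in which many of the genes below are known target genes.

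The 22Rv1 line was derived from a human prostate cancer. Its mRNA was sequenced in 3 libraries of parental cells given vehicle and in 3 libraries of the subline 22Rv1 BL-B01D1_R, which was obtained by stepwise exposure to BL-B01D1 (izalontamab brengitecan), an antibody-drug conjugate that binds EGFR and HER3 and carries a camptothecin-type topoisomerase I inhibitor. The comparison asks how the mRNA of the resistant subline differs from that of the cells it came from. The study's methods do not say whether drug was present at harvest or whether time in culture was matched. Effects of either cannot be told apart from those of resistance. The sources used here describe 1 resistant line and do not say whether its libraries came from separate cultures, so the p-values measure only the spread between these libraries, which may be technical.

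Counts on genes totaled 13821639 to 17251491 per library, and 3 counts corresponded to 0.174 to 0.217 CPM, which covers counting error only. In this paragraph, CPM is each count divided by the library's total without adjustment, times 1e+06. In all later paragraphs, the total is the TMM-adjusted one. Libraries of a group differed by more than sampling noise (chi-square per degree of freedom, 1.77 to 2.46), so all 6 were kept as separate samples. The epithelial keratin genes KRT8 (511 to 543 CPM) and KRT18 (149.6 to 176 CPM) were expressed in every library, whereas KLK3, the gene of prostate-specific antigen, was low (2.03 to 6.00 CPM). The immune and endothelial markers PTPRC, CD3E, CD68, PECAM1 and VWF reached at most 3 counts. Of the stromal markers, COL1A2 had at most 2 counts, and COL1A1 had 11.1 to 15.5 CPM. The neuroendocrine marker SYP had 94.9 to 109 CPM and CHGA 7.83 to 41.0 CPM, and the part of these cell states in the results was not tested.

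Most of the 39 mRNAs were somewhat lower in resistant cells, and no log2 fold change passed 1 in size. The fall was uneven between roles. Summed CPM differed by −14.3% for disulfide formation, −31.1% for translocation and export, and −30.5% for the ATF6 family with WFS1. For the Hsp70 and Hsp90 class, the lectin cycle and ERAD, the sums differed by −3.30%, 0.483% and 0.468%. At an FDR (the p adjusted by the Benjamini-Hochberg method over all genes tested) under 0.05, 22 of the 39 genes fell and 5 rose, led by CREB3L2 and ERO1B at the low end and by OS9 at the high end. The members called made up 69.2% of the 39, beside 35.5% of all genes tested. Genes called lower were 18.4% of all genes and genes called higher 17.1%. These genes were also more abundant than most, and 34 of them had a mean count of 500 or more, of which 21 fell and 5 rose. Among the 6979 genes with such counts, 24.8% were called lower and 22.7% higher.

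The median log2 fold change, resistant against parental, was −0.13 over the 39 genes and 0.0038 over all genes tested, with a range of −0.88 (CREB3L2) to 0.28 (OS9) among the 39. The fold change was below 0 for 31 genes and above 0 for 8. No gene had an absolute log2 fold change greater than 1 together with an FDR of less than 0.05, the threshold in the study's methods, which 5.37% of all genes passed. The count at that fold size was also 0 with an unadjusted p under 0.05, with limma-voom and with DESeq2. The absolute log2 fold change was under 0.5 for 84.6% of the 39 genes and for 83.1% of all genes tested. The median of the mean counts was 1283 for the 39 genes and 312 for all genes tested. Sizes of change were not compared with genes of similar count. The median coefficient of variation between libraries was 3.12% in parental and 3.04% in resistant cells for these genes, and 6.64% and 6.22% for all genes tested. In bulk RNA, a lower level in each cell and fewer cells that express the gene cannot be told apart.

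**Figure D1:**
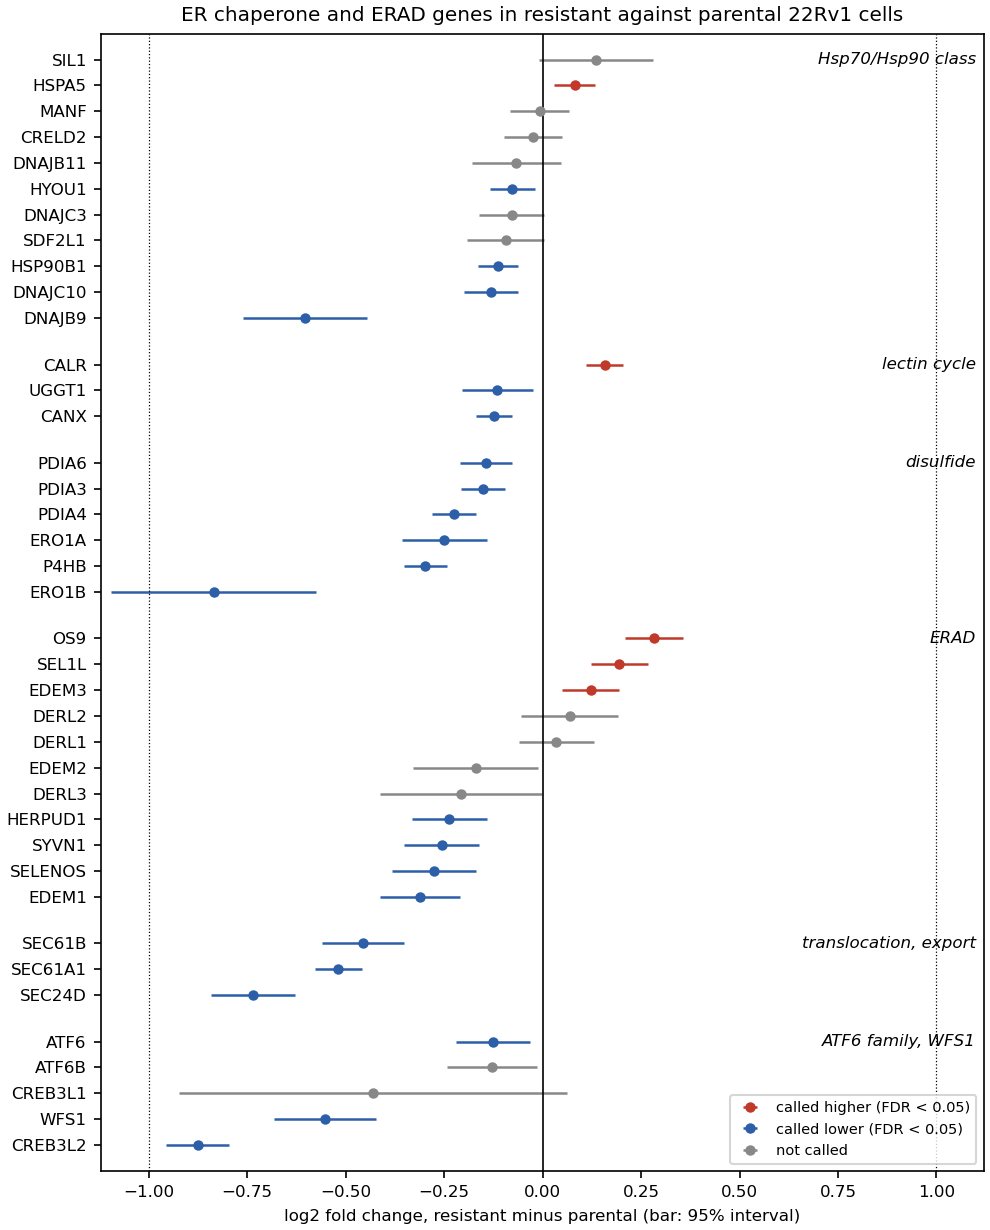
The plot of fold changes shows the log2 fold change of each of the 39 genes (x axis, resistant minus parental, point) with its 95% interval (bar), grouped by role, with dotted lines at −1 and 1. The points of genes called higher (5, red) and lower (22, blue) at an FDR under 0.05 all lie between the dotted lines. They run from −0.88 for CREB3L2 to 0.28 for OS9. The interval of ERO1B reaches −1.10 and so crosses the line at −1.

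In CPM, all resistant libraries lay under all parental libraries for 25 of the 39 genes and above them for 6. Such separation was found in 22.8% of all genes tested for the lower direction and in 22.1% for the higher direction. The summed CPM of the 39 genes was 8998, 8814 and 8882 in parental cells, against 8341, 8227 and 8183 in resistant cells. Every resistant sum was thus under every parental sum, and the means were 8898 ± 93.2 and 8250 ± 81.1 (SD, n = 3), a difference of −7.28%. Without scaling between libraries, the genes took 0.888% to 0.899% of the counts in parental and 0.813% to 0.827% in resistant libraries. CANX, CALR, HSP90B1 and HSPA5 alone made up 46.1% of the summed CPM over the 6 libraries.

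**Figure D2:**
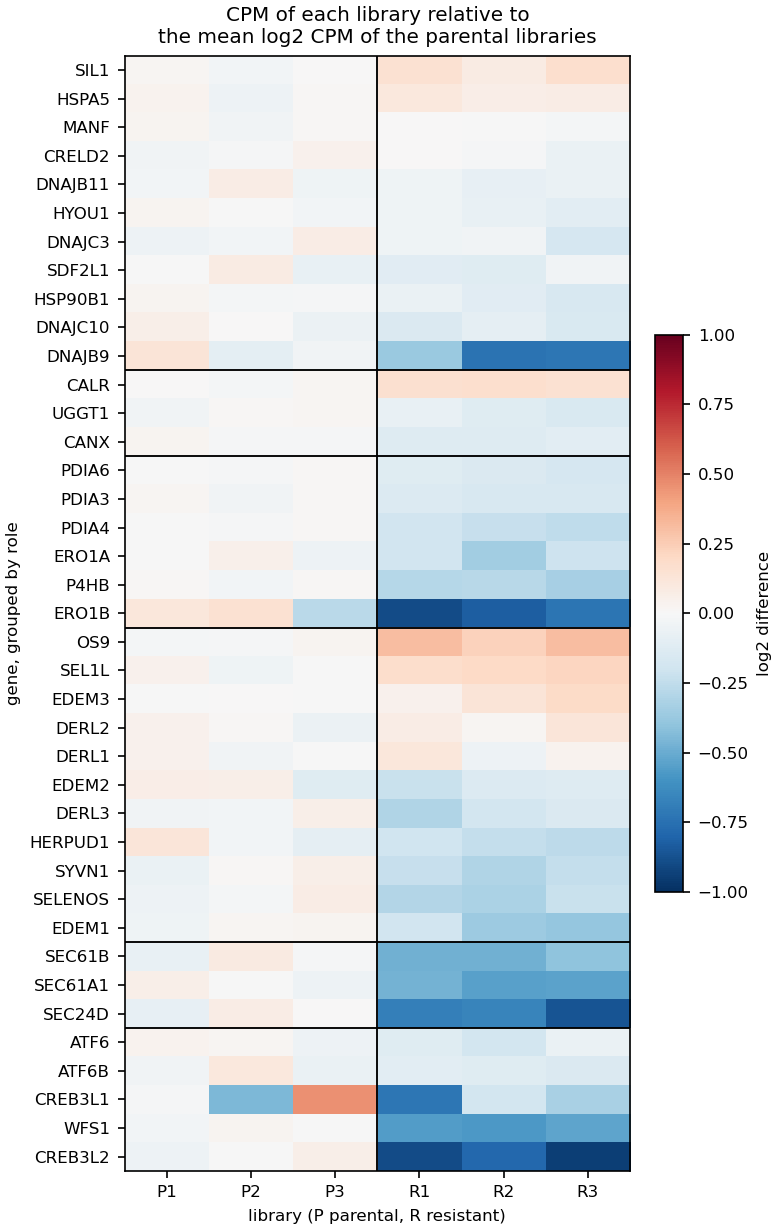
The heatmap shows the log2 CPM of each gene (rows, grouped by role) in each library (columns, P parental, R resistant) minus the mean of the 3 parental libraries, blue for lower and red for higher. CREB3L2, SEC24D, ERO1B and DNAJB9 are the darkest blue rows in the resistant libraries, OS9 is the darkest red row, and CREB3L1 varies among the parental libraries themselves.

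The Hsp70 and Hsp90 class and their cochaperones counted 11 genes, of which 4 fell, 1 rose and 6 were not called. The median log2 fold change was −0.08. The share called was 45.5%, beside 35.5% of all genes tested. Among genes with a mean count of 500 or more, 24.8% were called lower and 22.7% higher, so this class was near the share of abundant genes. The counts of the other roles below stand beside the same background shares. HSPA5 encodes BiP, the ER Hsp70 that also holds the stress sensors inactive. Its mRNA was 760, 715 and 745 CPM in the parental and 794, 775 and 780 CPM in the resistant libraries. All resistant values were above all parental ones, by a narrow margin. HSPA5 rose with a log2 fold change of 0.08 (SE 0.026, FDR 0.0108). Without parental library 2 the FDR was 0.128 at a log2 fold change of 0.06, and without resistant library 1 it was 0.0558 at 0.07, so the call rested on those libraries.

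HSP90B1 encodes GRP94, the ER Hsp90. It had 965, 933 and 937 CPM in the parental and 903, 872 and 846 CPM in the resistant libraries, with no overlap between the groups. The log2 fold change was −0.11 (SE 0.025, FDR 0.000387). HYOU1, an Hsp70-like protein that serves as a nucleotide exchange factor of BiP, had a log2 fold change of −0.08 (FDR 0.0336), and its call was lost without parental library 1 or 2 or resistant library 2 or 3, with FDR values of 0.0584 to 0.159. SIL1, another nucleotide exchange factor of BiP, was separated in the opposite direction (26.7 to 27.5 CPM in parental cells, 28.8 to 30.4 CPM in resistant cells) but did not pass the test (log2 fold change 0.14, FDR 0.139).

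The ER J proteins bring client chains to BiP and speed up its ATPase. DNAJB9 (ERdj4) lies on chromosome 7 of hg38 from 108569568 to 108574850, and it had 45.4, 38.9 and 40.7 CPM in the parental and 32.2, 25.0 and 25.1 CPM in the resistant libraries. The groups did not overlap, and resistant library 1 stood nearer to the parental libraries than the other two did. DNAJB9 fell by 34.1% (log2 fold change −0.60, SE 0.078, FDR 3.44e-08). Leaving out 1 library at a time gave −0.73 to −0.53. DNAJC10 (ERdj5), which reduces disulfide bonds, fell by a smaller amount (log2 fold change −0.13, FDR 0.00217), and was not called by limma on log2(FPKM + 1) (FDR 0.0833). DNAJB11 (ERdj3) and DNAJC3 (p58IPK) were not called, at log2 fold changes of −0.07 and −0.08. The remaining genes of the class were not called either: SDF2L1, a partner of DNAJB11, had a log2 fold change of −0.09, and the small stress-induced ER proteins CRELD2 and MANF had −0.02 and −0.01. For MANF the 95% interval of −0.08 to 0.07 bounds the difference on both sides.

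The lectin cycle holds glycoproteins in the ER until they are folded. Its 3 members were all called, but in different directions. CALR encodes the soluble lectin calreticulin (chromosome 19 of hg38, from 12938578 to 12944489) and had 1037, 1017 and 1045 CPM in the parental and 1152, 1158 and 1145 CPM in the resistant libraries. The gap between the groups was several times the spread within either. CALR rose with a log2 fold change of 0.16 (SE 0.023, FDR 4.47e-07), and it was called in all 6 fits that left out a library.

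CANX encodes calnexin, the membrane-bound lectin with the same sugar specificity. It had 1266, 1229 and 1230 CPM in the parental and 1138, 1133 and 1151 CPM in the resistant libraries, which lay under all parental ones. The log2 fold change was −0.12 (SE 0.023, FDR 3.43e-05). UGGT1, the glucosyltransferase that returns misfolded chains to both lectins, had a log2 fold change of −0.11 (FDR 0.0437), and its call was lost without parental library 2 or 3 or resistant library 2 or 3, with FDR values of 0.107 to 0.161. The summed CPM of the 3 genes hardly differed, at 2358 ± 27.2 in parental and 2370 ± 2.01 in resistant cells (SD, n = 3).

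All 6 genes for disulfide formation fell, with a median log2 fold change of −0.24. The protein disulfide isomerases form and rearrange disulfide bonds, and the ERO1 oxidases reoxidize them. P4HB, which encodes the isomerase PDI itself, had the lowest log2 fold change among the 4 isomerases (−0.30, FDR 4.29e-12). It went from 528, 517 and 530 CPM to 431, 433 and 417 CPM. PDIA4 followed with −0.22, PDIA3, which works with the lectins on glycoproteins, with −0.15, and PDIA6 with −0.14. The FDR of these 3 genes ranged from 1.44e-08 to 0.000435. None of the 4 isomerase genes overlapped between the groups, and each was called in all 6 fits that left out a library. The summed CPM of the 6 genes was 1665, 1633 and 1664 in the parental and 1439, 1417 and 1399 in the resistant libraries, a difference of −14.3%.

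Both ERO1 genes fell, and to unequal extents. ERO1A, the widely expressed oxidase, had 65.7, 68.2 and 63.4 CPM in the parental and 57.5, 51.6 and 56.8 CPM in the resistant libraries (log2 fold change −0.25, SE 0.054, FDR 0.000238). ERO1B, which is best known from secretory tissues such as the pancreas, lies on chromosome 1 of hg38 from 236215555 to 236281985. It had 222, 222 and 137 counts in the parental and 106, 99 and 116 counts in the resistant libraries, which corresponds to 12.9, 13.2 and 9.87 CPM and to 6.39, 6.73 and 7.15 CPM. Parental library 3 was the lowest of its group but still above every resistant library. ERO1B fell by 43.9% (log2 fold change −0.83, SE 0.129, FDR 1.23e-06), with −0.95 to −0.76 when 1 library was left out. On the log2(FPKM + 1) scale the difference was −0.51, since the added 1 is large beside the level of this gene.

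**Figure D3:**
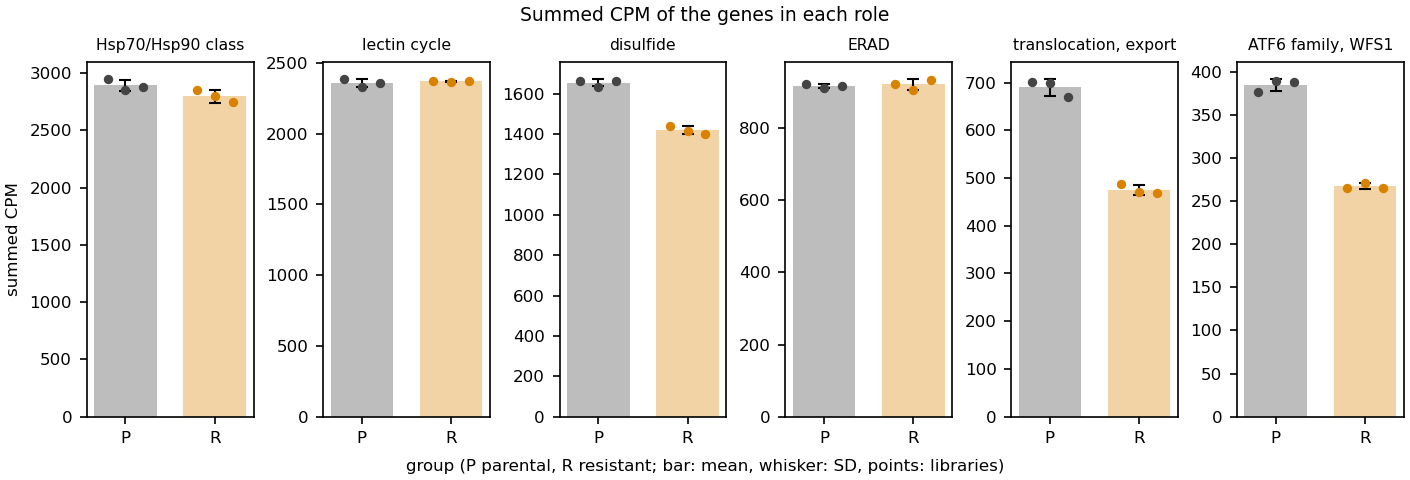
The plot of role sums shows the summed CPM (y axes, each from 0) of the genes of each role in the 6 libraries (points), with the mean (bar) and SD (whisker) of the 3 parental (P) and 3 resistant (R) libraries. The sums for disulfide formation, for translocation and export, and for the ATF6 family with WFS1 are clearly apart (−14.3%, −31.1% and −30.5%). Those of the Hsp70 and Hsp90 class, of the lectin cycle and of ERAD overlap (−3.30%, 0.483% and 0.468%).

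The 11 ERAD genes were split: 4 fell, 3 rose and 4 were not called (63.6% called), with a median log2 fold change of −0.17. Their summed CPM was 923, 910 and 917 in the parental and 923, 906 and 934 in the resistant libraries, so that no difference could be seen in the sum. The 3 genes that rose were OS9, SEL1L and EDEM3.

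OS9 is a lectin that binds glycoproteins with trimmed mannose and delivers them to the ubiquitin ligase complex. It lies on chromosome 12 of hg38 from 57693955 to 57721557 and had 123, 124 and 127 CPM in the parental and 154, 146 and 154 CPM in the resistant libraries. The lowest resistant library was well above the highest parental one. The log2 fold change of 0.28 (SE 0.037, FDR 3.86e-08) was the highest among the 39 genes, and it stayed between 0.27 and 0.31 when 1 library was left out.

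SEL1L is the adaptor that ties such substrates to the ubiquitin ligase HRD1, which is encoded by SYVN1. SEL1L had 142, 133 and 137 CPM in the parental and 155, 157 and 159 CPM in the resistant libraries. It rose (log2 fold change 0.20, SE 0.036, FDR 2.74e-05), with no overlap between the groups. SYVN1 went the other way, from 80.3, 84.8 and 88.0 CPM to 71.7, 68.5 and 71.3 CPM (log2 fold change −0.26, SE 0.047, FDR 2.44e-05). The adaptor and the ligase thus moved in opposite directions, with every resistant library outside the parental range for both. SYVN1 overlaps more abundant genes in position, as described below, so its counts are uncertain. HERPUD1, which helps to assemble the HRD1 complex, fell (log2 fold change −0.24, FDR 7.52e-05), as did SELENOS, a membrane selenoprotein that recruits the ATPase p97 to the ER (log2 fold change −0.28, FDR 4.62e-05).

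The EDEM proteins trim mannose from misfolded glycoproteins and so mark them for ERAD. EDEM1 had 80.1, 83.3 and 83.9 CPM in the parental and 72.0, 64.0 and 63.0 CPM in the resistant libraries and fell (log2 fold change −0.31, SE 0.050, FDR 2.60e-06). EDEM2 had 26.8, 26.7 and 23.6 CPM in the parental and 22.0, 23.3 and 23.5 CPM in the resistant libraries. Parental library 3 lay just above the resistant libraries, so the groups did not overlap, but EDEM2 was not called (log2 fold change −0.17, FDR 0.0876). Without parental library 3 it was called, with a log2 fold change of −0.22 and an FDR of 0.0382.

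EDEM3 had 165, 165 and 164 CPM in the parental and 170, 181 and 188 CPM in the resistant libraries. The parental libraries were almost level, whereas the resistant ones spread over a wider range. EDEM3 rose (log2 fold change 0.12, SE 0.036, FDR 0.00638), but the FDR without resistant library 3 was 0.0825 at a log2 fold change of 0.09.

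The derlins are membrane proteins through which ERAD substrates leave the ER, and none was called. DERL1 had 79.6, 75.5 and 77.2 CPM in the parental and 83.7, 74.9 and 79.4 CPM in the resistant libraries (log2 fold change 0.04, 95% interval −0.06 to 0.13). DERL2 had 42.1, 41.2 and 39.3 CPM and 42.9, 41.4 and 44.3 CPM in the same order (log2 fold change 0.07, 95% interval −0.06 to 0.19). The groups overlapped for both genes. DERL3, the least abundant derlin, had 14.1, 14.2 and 15.1 CPM in the parental and 11.7, 12.7 and 13.1 CPM in the resistant libraries (log2 fold change −0.21, FDR 0.111). The resistant libraries lay under the parental ones, at 187 to 243 counts per library.

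All 3 genes for translocation and export fell, with a median log2 fold change of −0.52. SEC61A1 encodes the pore-forming subunit of the Sec61 channel (chromosome 3 of hg38, from 128051641 to 128071683) and had 541, 519 and 501 CPM in the parental and 375, 356 and 359 CPM in the resistant libraries. SEC61B, a small subunit of the same channel, had 72.9, 81.6 and 76.0 CPM and then 55.1, 54.9 and 58.1 CPM. For both subunits the highest resistant library was far under the lowest parental one. SEC61A1 fell by 30.2% (log2 fold change −0.52, SE 0.030, FDR 2.41e-18) and SEC61B fell by 27.1% (log2 fold change −0.46, SE 0.052, FDR 1.39e-09).

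SEC24D selects cargo for the COPII coat, which carries folded proteins out of the ER. It lies on chromosome 4 of hg38 from 118722823 to 118838683 and had 87.4, 97.5 and 92.6 CPM in the parental and 57.7, 58.5 and 50.7 CPM in the resistant libraries. The groups were far apart, with resistant library 3 the lowest. SEC24D fell by 39.9% (log2 fold change −0.73, SE 0.053, FDR 3.59e-15), with −0.78 to −0.67 when 1 library was left out.

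The ATF6-type genes encode transcription factors that are held in the ER membrane and are cut free in the Golgi apparatus, after which they enter the nucleus. With WFS1 they counted 5 genes, of which 3 fell and 2 were not called (60% called). All 5 had a log2 fold change below 0 (median −0.43). CREB3L2, whose known targets include genes of the secretory pathway, had the lowest log2 fold change of the 39 genes. It lies on chromosome 7 of hg38 from 137874979 to 138002067 and had 193, 199 and 208 CPM in the parental and 107, 116 and 104 CPM in the resistant libraries. No resistant library came near the parental range. CREB3L2 fell by 45.5% (log2 fold change −0.88, SE 0.039, FDR 6.16e-22), with −0.92 to −0.84 when 1 library was left out.

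CREB3L1, its close relative with a known role in collagen secretion, was the weakest gene of the 39 in these cells, with 53, 38 and 59 counts in the parental and 31, 40 and 40 counts in the resistant libraries. In CPM these values were 3.08, 2.26 and 4.25 against 1.87, 2.72 and 2.46. The groups overlapped, and the log2 fold change of −0.43 had a 95% interval of −0.92 to 0.06 (FDR 0.175), which includes both 0 and the value of CREB3L2.

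ATF6 itself had 82.5, 81.7 and 78.0 CPM in the parental and 74.0, 71.2 and 76.9 CPM in the resistant libraries. Its log2 fold change was −0.13 (SE 0.047, FDR 0.0322), and the call was lost without parental library 1 or 2 or resistant library 1 or 2, with FDR values of 0.0817 to 0.169. ATF6B, the paralog of ATF6, had 54.9, 60.6 and 53.9 CPM and 52.3, 51.7 and 51.0 CPM in the same order. Its log2 fold change was also −0.13, but with an FDR of 0.0706 it was not called, whereas without parental library 1 or 3 the FDR was 0.0492 or 0.0441.

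WFS1 encodes wolframin, an ER membrane protein that is mutated in Wolfram syndrome and dampens ATF6. It lies on chromosome 4 of hg38 from 6269849 to 6303265 and had 43.5, 45.0 and 44.2 CPM in the parental and 30.0, 29.8 and 30.7 CPM in the resistant libraries. The libraries were tight within each group and far apart between them. WFS1 fell by 31.8% (log2 fold change −0.55, SE 0.064, FDR 2.12e-09).

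Levels of different genes were compared in FPKM, that is, with the CPM divided by the gene length in kilobases. The median level was 16.0 FPKM for these genes and 4.35 FPKM for all genes tested. CALR was the most abundant, at 381 FPKM in parental and 424 FPKM in resistant cells. HSP90B1 (201 FPKM), CANX (199 FPKM) and HSPA5 (189 FPKM) followed in parental cells, where HSP90B1 and CANX did not differ beyond their spread. In resistant cells, the order was HSPA5 (200.4 FPKM), HSP90B1 (186 FPKM) and CANX (183 FPKM), and again HSP90B1 and CANX were not separated. PDIA4 was the next in both groups (125 and 107 FPKM). SEC61A1, the sixth gene in parental cells at 111 FPKM, was at 77.4 FPKM in resistant cells and lay under PDIA3 (91.7 FPKM) there, while its libraries overlapped those of P4HB (80.6 FPKM). CREB3L1 (0.792 and 0.582 FPKM) and ERO1B (2.24 and 1.26 FPKM) were the lowest.

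**Figure D4:**
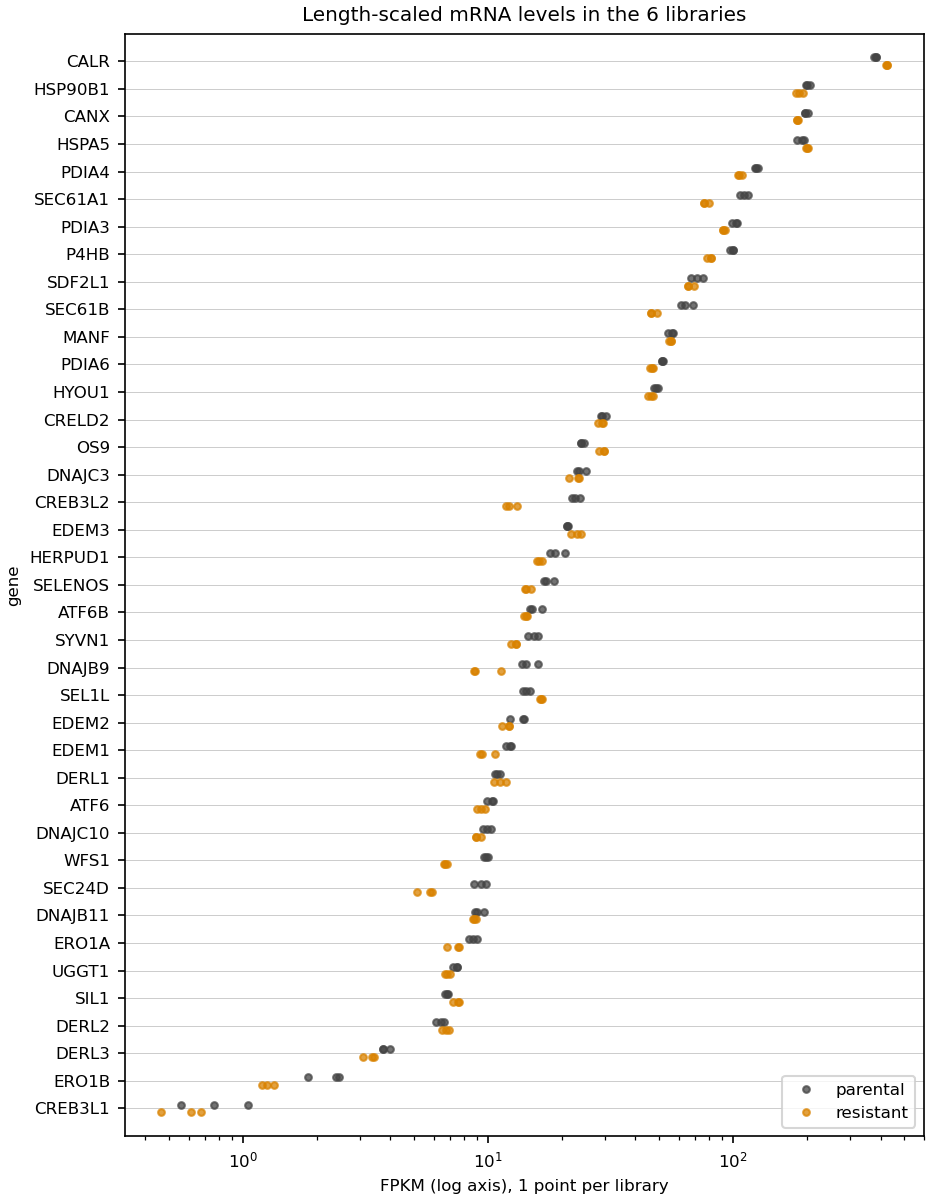
The plot of levels shows the FPKM of each gene in the 6 libraries (x axis, log scale, gray parental and orange resistant points), ordered by mean level. CALR is at the top (381 and 424 FPKM), HSPA5 moves from under HSP90B1 to above it, and CREB3L1 and ERO1B lie at the bottom.

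Ratios of FPKM within a library compare related genes without any scaling between libraries. In all, 14 pairs were compared, and they were chosen with the counts known. The smallest two-sided p that an exact permutation test of 3 libraries against 3 can give is 0.1, and after Benjamini-Hochberg adjustment over the 14 pairs it is 0.156, so no ratio could pass a threshold of 0.05. The ratio of HSP90B1 to HSPA5 was 1.06, 1.09 and 1.05 in the parental and 0.946, 0.937 and 0.902 in the resistant libraries. CALR to CANX was 1.88, 1.90 and 1.95 and then 2.33, 2.35 and 2.29. Both ratios were separated between the groups (exact permutation p = 0.1 each).

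The mean ratio of ERO1B to ERO1A was 0.256 ± 0.032 in parental and 0.172 ± 0.014 in resistant cells, and that of EDEM3 to EDEM1 was 1.73 ± 0.044 and 2.36 ± 0.278 (SD, n = 3, exact permutation p = 0.1 each). SYVN1 to SEL1L went from 1.07 ± 0.072 to 0.780 ± 0.023, and CREB3L2 to ATF6 from 2.23 ± 0.150 to 1.32 ± 0.126 (SD, n = 3, exact permutation p = 0.1 each). EDEM3 to EDEM2, DERL3 to DERL1 and PDIA4 to PDIA3 were separated as well. The other 5 pairs overlapped between the groups. ATF6B to ATF6 was 1.52 in both (exact permutation p = 1), and SEC61B to SEC61A1 was 0.584 ± 0.046 and 0.608 ± 0.030 (SD, n = 3, exact permutation p = 0.6). DERL2 to DERL1, EDEM2 to EDEM1 and CREB3L1 to CREB3L2 gave p values of 0.5, 0.3 and 0.2 in the same exact permutation test.

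**Figure D5:**
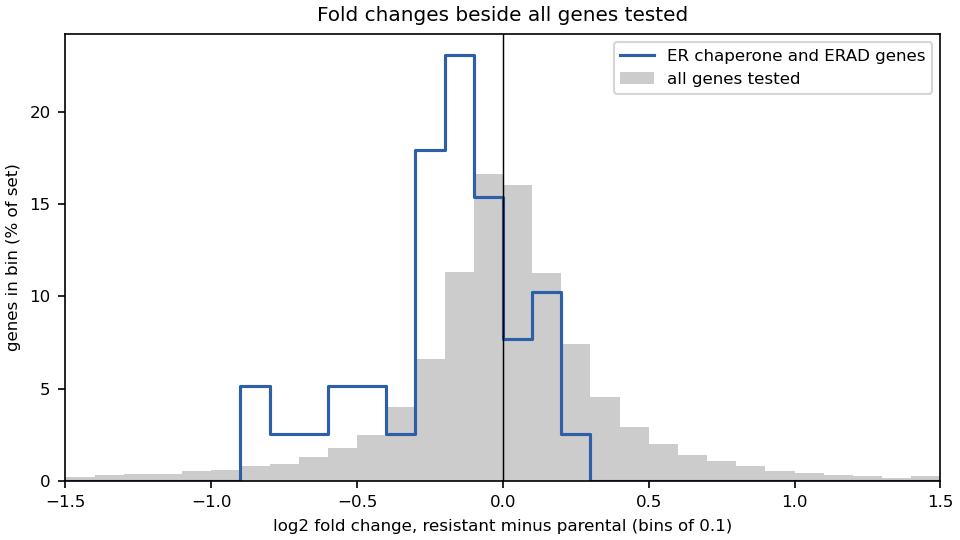
The plot of distributions shows the share of genes (y axis, percent of the set) in bins of 0.1 of the log2 fold change (x axis, drawn from −1.5 to 1.5) for the 39 genes (blue line) and all 17142 genes tested (gray). The 39 genes lie to the left of all genes (medians −0.13 and 0.0038), with none beyond −0.88 or 0.28.

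Several of these genes share bases with a neighbor, and the sources used here do not state whether counting used strand, so such counts are uncertain. Of the 39 genes, 28 overlapped another gene of the table in position, and for 11 an overlapping gene had a mean count of 10% or more of their own. DNAJB9 overlapped THAP5 and PNPLA8, whose mean counts were 436% and 174% of its own, on the opposite strand, with log2 fold changes of −0.21 and −0.08 beside −0.60 for DNAJB9. ERO1B overlapped GPR137B (159% of its count), which had a log2 fold change of −0.01. SEC61A1 overlapped RUVBL1 (32.5%), at 0.03. SYVN1 overlapped FAU (473% of its count, on the same strand) and MRPL49 (160%), at 0.06 and 0.11. SIL1 overlapped SNHG4 (142%), at −0.11. THAP5 was itself called lower, and none of the partners named so far had a difference as large as that of the gene it overlapped. For 4 genes that were not called, the partner had the larger absolute value: TBC1D31 (−0.37) overlapped DERL1 (0.04), TBCCD1 (−0.20) overlapped DNAJB11 (−0.07), TNXB (0.47) overlapped ATF6B (−0.13), and MIS12 (−0.13, with 99.2% of its count) overlapped DERL2 (0.07). CRELD2 (−0.02) overlapped ALG12 (23.1% of its count, 0.00). Just under the limit of 10%, PDIA6 (−0.14) overlapped ATP6V1C2 on the opposite strand. ATP6V1C2 had 9.80% of the count of PDIA6 and went the other way (log2 fold change 1.125, FDR 1.125e-13). The largest share was that of SMARCB1 over DERL3, with 1022% of its mean count, so the counts of DERL3 are the least certain of these.

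The members were spread over 19 chromosomes. Genes within 1 Mb of CREB3L2 (6 tested), SEC24D (13), DNAJB9 (13), WFS1 (17), SEC61A1 (16) and ERO1B (18) had median log2 fold changes between −0.04 and 0.30. The medians of their surroundings were thus not as low. Around SEC61A1, 5 genes were called lower and 1 higher, and around ERO1B, 3 lower and 0 higher. Around each of the others, more genes were called higher than lower. SEC61B differed in its median: the 11 genes tested within 1 Mb of it had −0.38, close to its own −0.46. Of these genes, 4 were called lower and 0 higher, beside 18.4% and 17.1% of all genes tested.

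Other genes of the same pathways, in 5 lists, help to place these values. Of 146 such genes tested, 56 fell, 22 rose and 1 passed a log2 fold change of 1 in size. The shares called below stand beside 35.5% of all genes tested, with 18.4% lower and 17.1% higher. For abundant genes, with a mean count of 500 or more, the shares were higher, at 24.8% lower and 22.7% higher. Among 42 other ER folding factors, 12 fell and 6 rose (42.9% called, near the share of all genes), with a median of −0.04, from HSPA13, an Hsp70-like ATPase (−0.63), to CRELD1 (0.44). Among 46 other ERAD factors, 12 fell and 7 rose (41.3% called, also near it), with a median of −0.02, from the ubiquitin ligase gene RNF103 (−0.57) to GET4 (0.33). The 26 genes for the rest of the translocon, the signal peptidase and the oligosaccharyltransferase were divided, with 14 lower, 7 higher (80.8% called) and a median of −0.13. SSR3, a subunit of the translocon-associated complex, was the lowest (−0.51), and SEC11A, a catalytic subunit of the signal peptidase, the highest (0.43).

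The COPII coat and its ER exit factors resembled SEC24D in direction: of 18 other genes tested, 10 fell (55.6% called), and the median was −0.18. The number that rose was 0 in edgeR's test, in limma-voom and in DESeq2, with 2 higher at an unadjusted p under 0.05 in edgeR. MIA3, the cargo receptor TANGO1, was the lowest (−0.61), and the highest, SEC31B, was not called (0.27, FDR 0.0521). Among 14 other sensors, proteases and factors of the unfolded protein response, 8 fell and 2 rose (71.4% called), with a median of −0.19. ERN1, which encodes the sensor IRE1, was the single gene past a log2 fold change of 1 in size (165 CPM in parental and 30.6 CPM in resistant cells, log2 fold change −2.43, SE 0.048, FDR 6.78e-35). TRIB3, a stress-induced pseudokinase, was the highest (0.35). No direct comparison of these lists with the 39 genes was tested.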

How the data were processed

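Poly-A mRNA of 6 libraries (3 parental, 3 resistant, grouped by the sample labels) was analyzed. Although the labels give mouse as organism, the gene identifiers belong to human genes and were treated as such. Reads were aligned by the authors to hg38 (HISAT2 2.0.5) and assigned to genes by featureCounts (1.5.0-p3). The deposited values are raw counts without normalization. Whether counting used strand is not given in the sources used here. Gene lengths, which the authors list beside the counts as another quantity, were used for FPKM. Columns of per-sample values left unused numbered 0, and no human genome sequence was used here.

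Genes were filtered with filterByExpr, scaled with TMM and tested in edgeR 4.0.16 (R 4.3.3) by its quasi-likelihood test, with Benjamini-Hochberg adjustment over 17142 genes. The biological coefficient of variation was 3.51%. The SE is the log2 fold change divided by the square root of F, in absolute value. Values are mean ± SD of 3 libraries. All 39 genes are named, with full values for the 5 highest and 5 lowest log2 fold changes among genes called, the 3 highest FPKM and the ERO1, DERL, EDEM, ATF6 and CREB3L families. P4HB, CANX, SYVN1, SEC61A1 and SEC61B, the FPKM ratios, and the overlapping and nearby genes were added after their values were seen. The genes and lists were chosen with earlier results of these data known.

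There were 9 alternatives: limma-voom (limma 3.58.1), DESeq2 (1.42.0), limma on log2(FPKM + 1), DESeq2's size factors, library size alone, no filter, a minimum of 10 counts per library, glmTreat against 0.5, and a replicate block. A further 6 fits each omitted 1 library. The scripts were tested on simulated counts.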

Additional observations from a re-analysis of the deposited data

How the results depend on the processing

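The counts of 5 genes higher and 22 lower changed most under glmTreat with a fold limit of 0.5 on the log2 scale, which called 0 higher and 3 lower (CREB3L2, ERO1B and SEC24D), beside 960 of all genes against 6081, and this test asks for a larger change by construction. With limma on log2(FPKM + 1), 3 were higher and 18 lower. In the other alternatives between 19 and 23 were lower. Leaving out 1 library gave 4 to 5 higher and 19 to 23 lower. CALR, SEL1L and OS9 among the genes called higher, and 18 of the 22 called lower, kept their call in all 6 of these fits and in the 8 alternatives other than glmTreat. HSPA5, EDEM3, HYOU1, UGGT1, ATF6 and DNAJC10 did not. The median log2 fold change of the 39 genes was −0.15 with library size alone, where the median of all genes was −0.01, and lay between −0.15 and −0.13 when 1 library was left out. The sign turned for MANF, at −0.0267 to 0.0054 (above 0 without parental library 1 or resistant library 3), and for DERL1, at −0.0036 to 0.0747 (below 0 without resistant library 1). The cause was not tested.

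The libraries share only a replicate number: deviations of same-numbered libraries correlated at −0.01, −0.02 and −0.02. With a replicate block, 5 genes were higher and 21 lower, and UGGT1 (FDR 0.0582) was the call lost. Counting error limits CREB3L1 (31 to 59 counts) most.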
